A study of Homo sapiens with 6 samples.

Results

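The collagen, laminin and integrin genes of PLC/PRF/5 cells were compared between control and MTR4 knockdown. The genes were the protein-coding ones whose symbol is that of a collagen chain (COL followed by a chain number), a laminin chain (LAMA, LAMB or LAMC) or an integrin subunit (ITGA or ITGB), matched to the Ensembl identifiers of the deposited counts. There were 82 of them among 19542 protein-coding and 60675 counted genes. They were 44 collagen, 12 laminin and 26 integrin genes, the last being 18 alpha and 8 beta subunit genes. The symbols alone chose them, and no measured value did.

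PLC/PRF/5 is a cell line from human hepatocellular carcinoma (HCC). MTR4 is the RNA helicase that delivers nuclear RNA to the exosome for decay. RNA-seq was performed on 3 control and 3 MTR4 KD libraries of cells grown in DMEM with fetal bovine serum. The methods of the study describe an inducible shRNA against MTR4 that doxycycline (Doxy) switches on, with the uninduced cells as the isogenic control, and the labels name neither an shRNA, a Doxy dose nor a time. No library of Doxy-treated cells with a scramble shRNA was analysed here, so that Doxy and the loss of MTR4 cannot be told apart. In separate experiments on such cells the study reports no effect of Doxy on glycolytic genes and little on tumor growth. The labels do not say whether replicates were separate cultures, and p-values then measure the spread between these libraries, which may be technical.

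Collagens are helices of identical or related alpha chains wound around each other, secreted as the fibrils and networks of connective tissue. Laminins are trimers of an alpha, a beta and a gamma chain that, with type IV collagen, form the sheets of basement membranes. Integrins are alpha and beta subunit pairs in the plasma membrane that bind these ligands outside the cell and the actin cytoskeleton inside it. In the liver, stellate cells and fibroblasts are the main source of fibrillar collagen, whereas hepatocytes and the carcinoma cells derived from them carry integrins that contain the beta 1 chain.

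The libraries held 60686786 to 72708682 reads on genes. The libraries differed in the share of entries whose alignment was not unique, which was 34.7% to 37.5% in controls 1 and 3 and MTR4 KD 3 (called high-share libraries here) and 14.8% to 18.2% in control 2 and MTR4 KD 1 and 2 (low-share libraries). The labels do not name a batch. Control 2 also stood apart in its genes, since 392 genes with at least 10 reads were over 5 times higher there than in every other library, against 6 to 65 such genes in each of the others. MTR4 itself, named MTREX in the annotation, was at 72.2, 87.4 and 74.4 CPM (reads on the gene for a fixed total of reads) in controls 1 to 3 and at 44.6, 48.8 and 44.1 CPM in MTR4 KD 1 to 3, and fell by 0.77 ± 0.09 (SE) on the log2 scale (adjusted p = 0.0064, edgeR). Of 14 hepatocyte marker genes all 14 passed the filter on low counts, with a summed level of 38545 to 40297 CPM in the controls and 39097 to 41509 CPM in MTR4 KD. Markers of other cell types had lower sums. For 14 fibroblast and mural genes they were 157 to 190 CPM in the controls and 145 to 177 CPM in MTR4 KD. For 6 leukocyte genes they were 31.2 to 36.5 and 26.9 to 29.4 CPM. For the 6 measured of 7 endothelial genes they were 0.265 to 1.88 and 0.440 to 0.832 CPM. Of the 14 fibroblast and mural genes 9 were under 1 CPM in every library, among them DCN, LUM, FAP and POSTN at 0 to 0.359 CPM. The rest of that list held nearly all of its summed level, VIM only a small part of it (its values are given below). Of the tested marker genes 3 of 14 hepatocyte genes rose and 1 of 6 fibroblast and mural genes, VIM, fell. Over all tested genes 1.48% rose and 2.12% fell.

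The start sites of the collagen IV genes are shown first, because the chains of type IV collagen lie head to head in pairs that share the stretch between their starts, and members of a pair are described together below. COL4A1 runs to the left and COL4A2 to the right of a stretch at chr13:110307157-110307284 (plus strand, RefSeq, GRCh38.p14), with 127 bases between the start sites. Promoter windows of the 4 genes that changed in MTR4 KD and have a single annotated start, each from 250 bases before to 50 bases after it, are given as well, for COL11A1, which rose, and for the integrin genes ITGA2, ITGA10 and ITGA11, which fell. They lie at chr1:103108473-103108772 (minus strand), chr5:52989102-52989401 (plus strand), chr1:145910001-145910300 (minus strand) and chr15:68432114-68432413 (minus strand). Capitals mark matches, on either strand, to the letters CCAAT, known as the box of that name, to those of the GC box, which are GGGCGG, to those of the TATA box, which reads TATAAA in its core, to the E box of the form CACGTG and to the AP-1 element in its form TGANTCA, and no matches overlap in these 5 stretches.
COL4A1 and COL4A2: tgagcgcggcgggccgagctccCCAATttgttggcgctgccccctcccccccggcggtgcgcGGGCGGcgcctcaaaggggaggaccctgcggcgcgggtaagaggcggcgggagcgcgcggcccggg
COL11A1: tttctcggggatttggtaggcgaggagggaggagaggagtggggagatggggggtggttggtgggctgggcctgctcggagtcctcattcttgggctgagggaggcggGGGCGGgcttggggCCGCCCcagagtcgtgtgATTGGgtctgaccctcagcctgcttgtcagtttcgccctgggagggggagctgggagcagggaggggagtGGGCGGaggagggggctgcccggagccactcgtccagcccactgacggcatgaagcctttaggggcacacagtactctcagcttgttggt
ITGA2: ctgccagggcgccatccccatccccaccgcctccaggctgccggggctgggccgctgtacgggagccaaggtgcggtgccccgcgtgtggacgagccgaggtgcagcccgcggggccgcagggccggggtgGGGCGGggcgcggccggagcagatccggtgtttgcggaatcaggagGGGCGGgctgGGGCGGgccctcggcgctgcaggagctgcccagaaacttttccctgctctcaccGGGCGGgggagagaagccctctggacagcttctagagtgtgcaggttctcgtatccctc
ITGA10: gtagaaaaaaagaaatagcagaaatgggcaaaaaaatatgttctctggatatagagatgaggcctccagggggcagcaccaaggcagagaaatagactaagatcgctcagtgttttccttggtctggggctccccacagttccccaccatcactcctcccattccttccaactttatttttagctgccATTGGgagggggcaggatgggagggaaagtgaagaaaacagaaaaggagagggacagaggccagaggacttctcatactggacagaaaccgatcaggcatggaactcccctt
ITGA11: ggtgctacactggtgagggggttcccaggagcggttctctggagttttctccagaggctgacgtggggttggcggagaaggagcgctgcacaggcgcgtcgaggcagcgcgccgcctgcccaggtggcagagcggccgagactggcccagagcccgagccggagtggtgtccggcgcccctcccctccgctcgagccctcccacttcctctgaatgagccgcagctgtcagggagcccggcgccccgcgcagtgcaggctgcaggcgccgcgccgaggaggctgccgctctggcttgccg
The COL4A1 and COL4A2 stretch holds 1 match to the CCAAT box and 1 to the GC box, the ITGA2 window matches to the GC box alone, the ITGA10 window a match to the CCAAT box read on the opposite strand, the ITGA11 window no match, and the COL11A1 window both kinds. The GC box occurs in 45.0% of all 35116 promoter windows of this length and in 43 of the 77 windows of the 58 genes of these families that had one (55.8%). The CCAAT box occurs in 34.6% of all windows and in 20 of the 77 (26.0%). The other 3 motifs occur in 11.5% (TATA box), 7.26% (E box) and 7.71% (AP-1) of all windows and in 10, 1 and 4 of the 77. A match is a run of letters and not a measured site.

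PLC/PRF/5 cells expressed the genes of these families at very unequal levels. Counts were scaled to CPM with TMM library sizes and divided by the length of annotated exon, so that levels of different genes could be set side by side. The highest level was that of ITGB1, the beta chain shared by most matrix-binding integrins, with a mean over the 6 libraries of 68.3 CPM per kb, followed by LAMC1 at 49.4, ITGB5 at 43.1, LAMB2 at 42.7 and ITGA5 at 41.6 CPM per kb. LAMC1 encodes the gamma chain of most laminins, LAMB2 a beta chain, and ITGA5 the alpha chain of the fibronectin receptor. In control, ITGB5, LAMB2 and ITGA5 had mean levels of 53.9, 41.1 and 40.7 CPM per kb, and in MTR4 KD of 32.2, 44.3 and 42.5 CPM per kb, so that their order was not the same in the groups.

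Among the collagens COL6A1, COL18A1 and COL6A2 had the highest levels. COL6A1 and COL6A2, chains of the beaded filaments of type VI collagen, had mean levels of 24.7 and 10.1 CPM per kb, and COL18A1, a basement membrane collagen whose end is cleaved to endostatin, had 22.5 CPM per kb. COL6A1 and COL18A1 did not differ beyond the spread of COL18A1, which was at 243, 109 and 249.5 CPM in controls 1 to 3 and at 138, 146 and 259 CPM in MTR4 KD 1 to 3. These levels followed the share of non-unique alignments and not the groups, with all 3 high-share libraries above all 3 low-share ones. High-share libraries lay above low-share ones for COL6A1 as well, at 136 to 161 CPM against 114 to 129 CPM. For COL6A2 they were at 59.9 to 67.8 CPM against 41.8 to 45.9 CPM. Of the exon bases of COL18A1, 18.5% also belong to SLC19A1 in the annotation. The fibrillar chains were lower per length, with COL11A1 at 3.57 and COL5A2 at 2.46 CPM per kb. LAMA5, the alpha chain of adult basement membrane laminins, had 25.6 CPM per kb and was the third of the laminins.

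In all, 25 of the 82 genes had a mean of at least 1 CPM per kb, of which 7 were collagen, 6 laminin and 12 integrin genes. Another 37 were under 1 CPM in every library, and no gene was without a read in all 6. COL1A1, the main chain of type I collagen, was at 2.56 to 6.05 CPM over the 6 libraries and COL3A1, the chain of type III collagen, at 0.853 to 2.17 CPM.

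**Figure D1:**
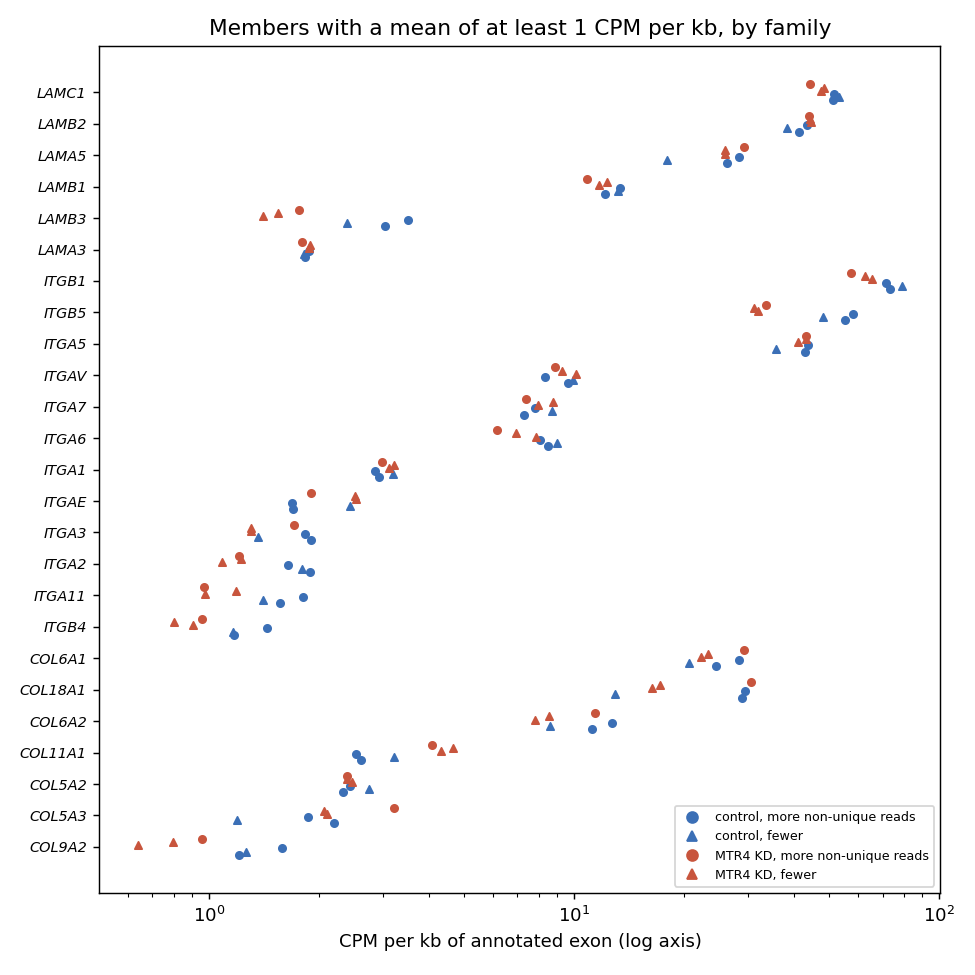
Level in CPM per kb of annotated exon (log axis) of the 25 genes with a mean of at least 1, by family. Each point is a library, blue for control and red for MTR4 KD, a circle for the high-share and a triangle for the low-share libraries. ITGB1 and LAMC1 lie at the top, the red points of ITGB5 and LAMB3 lie left of the blue ones and those of COL11A1 right of them, and the triangles of COL18A1 lie left of its circles.

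The comparison of control with MTR4 KD, which asks what depends on MTR4, called 1 of the 56 tested genes higher and 5 lower. COL11A1 rose, and ITGB5, ITGA10, ITGA2, ITGA11 and LAMB3 fell. The edgeR quasi-likelihood test was run over all 18075 genes that passed the filter, with condition as its only term, and its p-values were adjusted over all of them. At an adjusted p under 0.05, 1.48% of all tested genes were higher and 2.12% lower. ITGA10 was the one gene of these families past a 2-fold change as well, where 0.83% of all tested genes were. Every MTR4 KD library lay below every control library for 14 of the 56 and above for 3 (COL11A1, COL28A1 and LAMB2), against 12.6% and 12.1% of all tested genes.

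The median log2 fold change (MTR4 KD over control) was -0.15 over the 56 genes and 0.01 over all tested genes. By family it was -0.23 over 27 collagen, -0.07 over 8 laminin and -0.24 over 21 integrin genes. Without control 2 these medians were -0.07, -0.08 and -0.25. With the class of library (high-share or low-share) as a covariate they were -0.09, -0.10 and -0.09, and with the covariate and without control 2 they were 0.35, -0.15 and -0.15, so that the collagen median turned direction and the size of the integrin median varied with the fit. In bulk RNA a smaller share of cells that express a gene and less of its RNA per cell cannot be told apart.

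**Figure D2:**
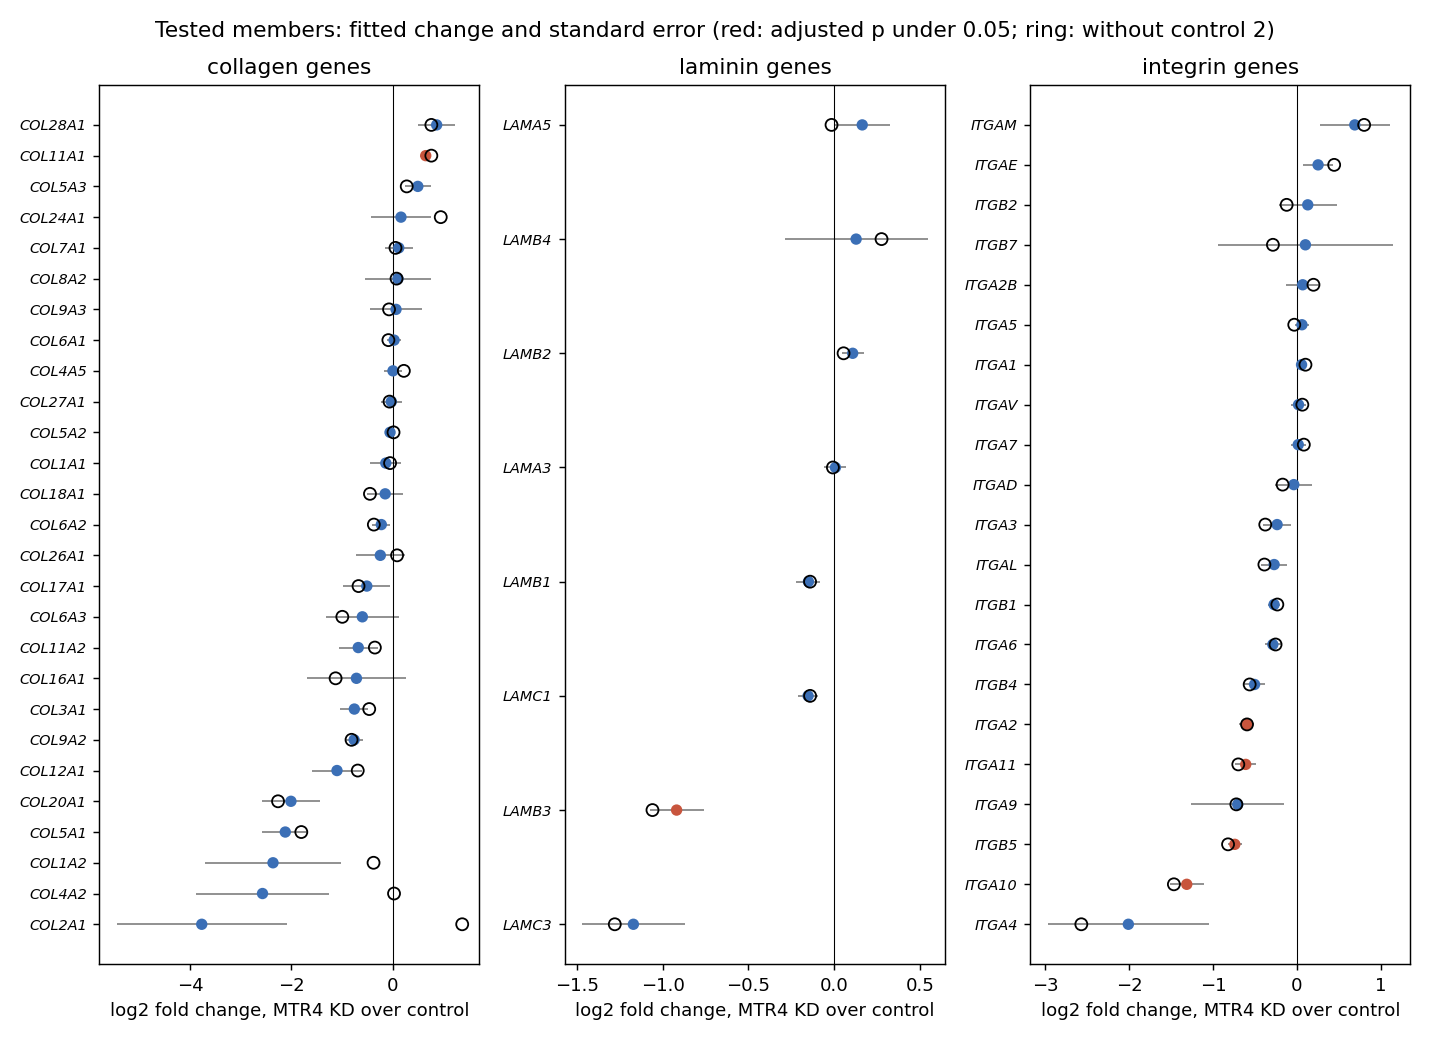
Fitted log2 fold change, MTR4 KD over control, of the 56 tested genes by family, with bars of 1 standard error, each panel with its own axis. Red points have an adjusted p under 0.05, blue points do not, and open rings give the fold change without control 2. The 5 red points of ITGB5, ITGA10, ITGA2, ITGA11 and LAMB3 lie left of 0 and that of COL11A1 right of it, and rings lie far from points for COL2A1, COL4A2 and COL1A2.

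Of the ligands, COL11A1 was the collagen that rose. It encodes the alpha 1 chain of type XI collagen, a minor fibrillar collagen that sits in the core of fibrils (ENSG00000060718, chr1:102876473-103108522). It was at 23.7, 29.1 and 23.0 CPM in controls 1 to 3 and at 39.4, 42.3 and 37.1 CPM in MTR4 KD 1 to 3. The groups did not overlap, and the mean rose from 25.3 ± 3.39 to 39.6 ± 2.61 CPM (SD, n = 3), a log2 fold change of 0.65 ± 0.11 (SE; adjusted p = 0.0223, edgeR). Of its partners in fibrils, COL11A2 was at 0.243 to 0.594 CPM over the 6 libraries (-0.68 on the log2 scale, adjusted p = 0.400), and COL5A2, a chain of type V collagen, at 17.0, 20.2 and 17.8 CPM in control and 18.0, 17.4 and 17.5 CPM in MTR4 KD (-0.05, adjusted p = 0.788).

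COL5A1, the other main chain of type V collagen, was low and lower in each MTR4 KD library than in any control. It was at 0.487, 1.26 and 0.962 CPM in control and 0.147, 0.180 and 0.294 CPM in MTR4 KD, with a log2 fold change of -2.12 ± 0.45 that missed the threshold (adjusted p = 0.0527). Among all 11 fibrillar collagen genes, which all passed the filter, 1 rose and none fell, against 1.48% and 2.12% of all tested genes. Their median log2 fold change was -0.14. Of the type VI chains 3 were tested, with log2 fold changes of 0.03 for COL6A1, -0.23 for COL6A2 and -0.60 for COL6A3 (adjusted p = 0.943, 0.560 and 0.708). Of the 5 tested FACIT collagens, which decorate fibrils, 2 had an unadjusted p under 0.05, as 18.8% of all tested genes did, and none an adjusted p under 0.05, while DESeq2 called 1 lower and limma-voom none, against 4.26% and 2% of all tested genes. The nearest was COL9A2, a chain of type IX collagen, at 5.11, 5.33 and 6.68 CPM in control and 2.69, 3.37 and 4.03 CPM in MTR4 KD (log2 fold change -0.76 ± 0.18, adjusted p = 0.0741), where the groups did not overlap.

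LAMB3 was the laminin gene that fell. It encodes the beta chain of laminin-332, the laminin of epithelial anchoring contacts (ENSG00000196878, chr1:209614870-209652425). It was at 14.1, 11.1 and 16.4 CPM in controls 1 to 3 and at 6.55, 7.20 and 8.22 CPM in MTR4 KD 1 to 3. The mean fell from 13.9 ± 2.62 to 7.32 ± 0.84 CPM (SD, n = 3), a log2 fold change of -0.92 ± 0.16 (adjusted p = 0.0255, edgeR). The alpha chain of the same trimer did not move with it, since LAMA3 was at 26.5, 26.4 and 27.3 CPM in control and 27.2, 27.4 and 26.0 CPM in MTR4 KD (log2 fold change 0.01 ± 0.06, adjusted p = 0.964).

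The chains of the abundant laminins gave smaller values. LAMC1 was at 432, 449 and 436 CPM in control and 402, 409 and 374 CPM in MTR4 KD, which did not overlap, at a log2 fold change of -0.15 ± 0.06 (adjusted p = 0.232). LAMB2 was at 285, 263 and 299 CPM in control and 306, 304 and 302 CPM in MTR4 KD (log2 fold change 0.11, adjusted p = 0.417). LAMA5 was at 375, 256 and 403 CPM in control and 371, 369.7 and 418 CPM in MTR4 KD (log2 fold change 0.16, adjusted p = 0.640). Control 2 was the lowest library for both LAMB2 and LAMA5. LAMC3, a gamma chain at 0.470 to 0.633 CPM in control and 0.196 to 0.277 CPM in MTR4 KD, differed by -1.17 ± 0.30 on the log2 scale (adjusted p = 0.0910).

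Among the receptors, ITGB5 had the smallest adjusted p of all the genes of these families. It encodes the beta 5 chain, which pairs with the alpha V chain to bind vitronectin (ENSG00000082781, chr3:124761948-124901418). It was at 361, 313 and 379 CPM in controls 1 to 3 and at 208, 203 and 219 CPM in MTR4 KD 1 to 3, well separated. The mean fell from 351 ± 34.0 to 210.0 ± 8.02 CPM (SD, n = 3), a log2 fold change of -0.74 ± 0.08 (adjusted p = 0.0051, edgeR). Its partner ITGAV was at 186, 192 and 161 CPM in control and 196, 179 and 171 CPM in MTR4 KD (log2 fold change 0.02 ± 0.09, adjusted p = 0.930). Of the other beta chains that can pair with alpha V, ITGB1 was abundant and is described below, while ITGB3 had 0 to 13 and ITGB6 1 to 9 reads per library and were not tested.

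Of the 4 collagen-binding alpha subunits 3 fell, against 2.12% of all tested genes. ITGA2, the alpha chain of the main collagen receptor of epithelia and platelets (ENSG00000164171, chr5:52989352-53094779), was at 14.9, 14.2 and 13.0 CPM in controls 1 to 3 and 8.56, 9.69 and 9.56 CPM in MTR4 KD 1 to 3. ITGA10, best known from cartilage (ENSG00000143127, chr1:145891208-145910050), was at 3.73, 3.01 and 4.78 CPM in control and 1.35, 1.56 and 1.71 CPM in MTR4 KD. ITGA11, best known from fibroblasts (ENSG00000137809, chr15:68296532-68432163), was at 17.1, 15.3 and 19.7 CPM in control and 10.6, 12.9 and 10.5 CPM in MTR4 KD. The groups did not overlap for any of the 3, while every MTR4 KD library lay below every control for 12.6% of all tested genes.

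The log2 fold change was -0.60 ± 0.09 for ITGA2 (adjusted p = 0.0172, edgeR). For ITGA10 it was -1.31 ± 0.20 (adjusted p = 0.0173) and for ITGA11 -0.61 ± 0.13 (adjusted p = 0.0480). ITGA1, the fourth of the group and the most abundant in CPM, differed by 0.06 ± 0.07 (adjusted p = 0.716), with 54.1, 59.3 and 52.7 CPM in control and 57.8, 59.4 and 55.4 CPM in MTR4 KD. In the annotation ITGA1 shares 13.2% of its exon bases with other genes, among them PELO, and ITGA10 1.95%. The beta 1 chain, with which all 4 pair, was at 1068, 1154 and 1043 CPM in control and 952, 914 and 836 CPM in MTR4 KD, and its gene ITGB1 missed the threshold (log2 fold change -0.27 ± 0.07, adjusted p = 0.105) although the groups did not overlap.

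**Figure D3:**
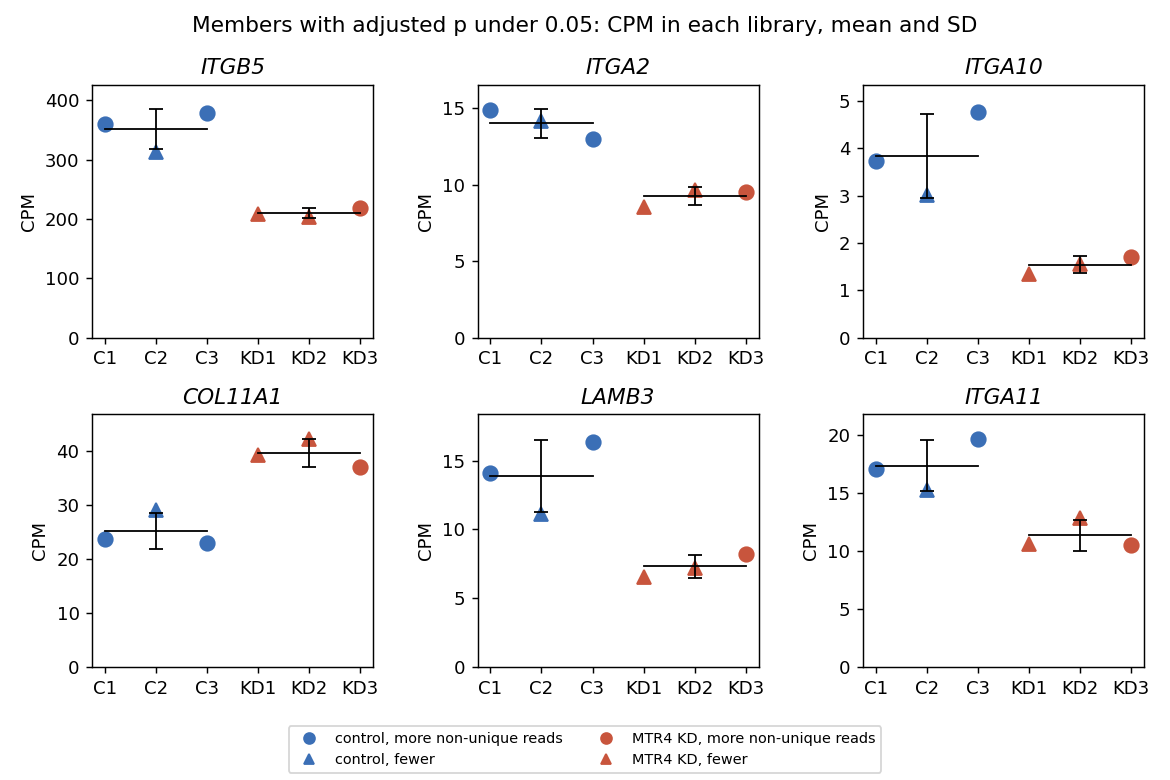
CPM in each library (C, control; KD, MTR4 KD) of the 6 genes with an adjusted p under 0.05, each panel with its own axis from 0. Circles are high-share and triangles low-share libraries, and lines with bars give the mean and SD of each group of 3. No panel has a red point among the blue ones, and MTR4 KD lies lower in all panels but that of COL11A1.

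The laminin-binding alpha subunits were ITGA3, ITGA6 and ITGA7. ITGA3, the alpha chain of the laminin-332 receptor, was at 13.4 to 18.6 CPM in control and 12.8 to 16.8 CPM in MTR4 KD (log2 fold change -0.24, adjusted p = 0.496), and ITGA7, best known from muscle, at 66.2 to 79.0 and 67.0 to 79.3 CPM (0.02, adjusted p = 0.946). ITGA6, which pairs with beta 4 in epithelial anchoring contacts, was at 56.9, 59.9 and 54.0 CPM in control and 52.5, 46.4 and 41.0 CPM in MTR4 KD (log2 fold change -0.29 ± 0.10, adjusted p = 0.173). Its partner ITGB4 was at 7.90, 7.89 and 9.78 CPM in control and 6.13, 5.42 and 6.46 CPM in MTR4 KD (log2 fold change -0.51 ± 0.12, adjusted p = 0.0830). The groups did not overlap for either chain. Of the 3 tested RGD-binding alpha subunits, which read the short motif of fibronectin and vitronectin, ITGA5 was at 264 to 323 CPM in control and 303 to 319 CPM in MTR4 KD (log2 fold change 0.06, adjusted p = 0.766).

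The alpha subunits known from leukocytes were present at low levels, and the smallest adjusted p of the 4 tested was 0.389, for ITGAL. ITGAE, the partner of beta 7 that binds E-cadherin, was the highest, at 11.3, 16.1 and 11.1 CPM in control and 16.7, 16.6 and 12.5 CPM in MTR4 KD (log2 fold change 0.25, adjusted p = 0.508), with all 3 low-share libraries above the high-share ones. ITGA4 was at 0.0414 to 0.973 CPM in control and ITGB7 at 0.180 to 3.60 CPM over all libraries, and 26.4% and 42.3% of their exon bases also belong to CERKL and ZNF740, so that their reads could not be assigned with certainty.

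The 6 calls were then examined library by library. They were compared within the high-share libraries (MTR4 KD 3 against controls 1 and 3) and within the low-share ones (MTR4 KD 1 and 2 against control 2). Since the groups did not overlap for any of the 6, their direction was fixed in advance, and only the sizes are informative. The log2 differences were -0.76 and -0.61 for ITGB5, -1.29 and -1.04 for ITGA10, -0.54 and -0.64 for ITGA2, -0.80 and -0.38 for ITGA11, -0.88 and -0.69 for LAMB3, and 0.67 and 0.49 for COL11A1. Over the 56 genes, 25 were lower and 10 higher in both classes of library and 21 went opposite ways. The calls were less firm when a library was left out. Over all tested genes 267 were higher and 383 lower with all libraries, against 52 and 85 without MTR4 KD 2. These counts were 65 and 99 without control 1, 65 and 118 without control 3, and 62 and 101 without MTR4 KD 1. Leaving out MTR4 KD 3 gave 273 and 349. Without MTR4 KD 2 none of the 6 passed. Without control 1, control 3 or MTR4 KD 1 ITGB5 alone did, and without MTR4 KD 3 all but ITGA11. Their signs stayed, as groups that do not overlap must. The largest adjusted p over the 6 omissions was 0.0530 for ITGB5, 0.104 for ITGA10, 0.106 for ITGA2, 0.119 for COL11A1, 0.139 for LAMB3 and 0.217 for ITGA11.

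**Figure D4:**
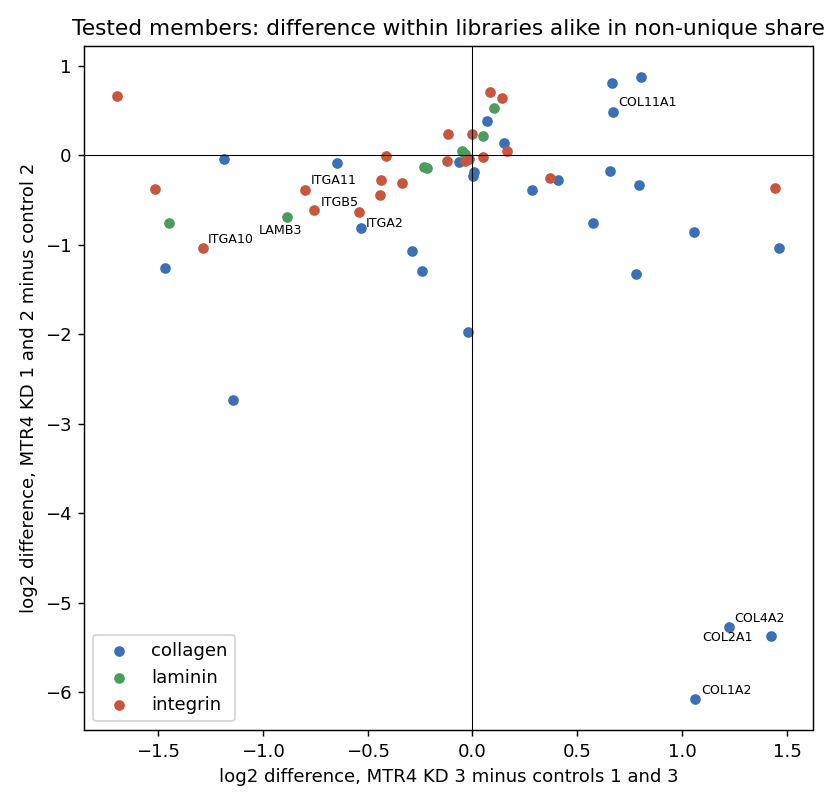
Log2 difference, MTR4 KD minus control, of the 56 tested genes within the 3 high-share libraries (x axis, MTR4 KD 3 against controls 1 and 3) and within the 3 low-share libraries (y axis, MTR4 KD 1 and 2 against control 2), colored by family. The 5 genes that fell lie in the lower left and COL11A1 in the upper right, while COL2A1, COL4A2 and COL1A2 lie far down on the right, above 0 on one axis and below -5 on the other.

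With the class of library (high-share or low-share) as a covariate the estimated biological coefficient of variation over all genes went from 0.175 to 0.0573, and 18 of the 56 genes passed, 4 higher and 14 lower, among them all 6 named above. In this fit 9.43% of all tested genes were higher and 10.8% lower. The further genes that rose were COL5A3, a minor chain of type V collagen (log2 fold change 0.73 ± 0.08, adjusted p = 3.86e-05), LAMA5 (0.32 ± 0.08, adjusted p = 0.0096) and COL18A1 (0.22 ± 0.06, adjusted p = 0.0209). COL18A1 thereby went from -0.15 in the fit with condition only to above 0. COL5A3 was at 14.9, 8.11 and 12.6 CPM in control and 14.3, 14.0 and 21.8 CPM in MTR4 KD, overlapping groups in which control 2 was lowest and MTR4 KD 3 highest.

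The 9 further genes that fell with the covariate were 3 integrin, 2 laminin and 4 collagen genes. With the covariate, the log2 fold change was -0.32 ± 0.04 for ITGB1 (adjusted p = 1.61e-04), -0.35 ± 0.06 for ITGA6 (adjusted p = 0.0012), -0.45 ± 0.11 for ITGB4 (adjusted p = 0.0091), -0.18 ± 0.04 for LAMC1 (adjusted p = 0.0073) and -0.18 ± 0.05 for LAMB1 (adjusted p = 0.0178). The collagen genes COL5A1 (-2.16), COL9A2 (-0.68), COL3A1 (-0.82) and COL2A1 (-4.00) were the others. With the covariate and without control 2 none of these 4 passed (adjusted p = 0.173, 0.0588, 0.673 and 0.167), and COL2A1 went to 1.68 on the log2 scale.

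The fold change in the fit with the covariate and without control 2 came from MTR4 KD 3 against controls 1 and 3, since no low-share control was left. MTR4 KD 3 was thus a lone library, whose spread was taken from the other libraries and is assumed to be like theirs. This fit called 5 genes of these families higher and 10 lower, against 7.02% and 8.22% of all tested genes, and 12 of these 15 were among the 18 above. Among them were the 5 lower integrin and laminin genes named just before and the 6 of the fit with condition only. LAMA5 and COL18A1 did not pass. COL1A1 (0.57, adjusted p = 0.0306), COL7A1, the chain of anchoring fibrils (0.65, adjusted p = 5.50e-04), and COL27A1, a fibrillar chain (0.41, adjusted p = 0.0074), passed here alone of the 4 fits with and without the covariate and control 2. MTR4 KD 3 was the highest of the 6 libraries for each of them, at 6.05 CPM for COL1A1, 13.0 CPM for COL7A1 and 16.5 CPM for COL27A1, against at most 4.83, 8.62 and 12.5 CPM elsewhere.

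Without control 2 and without the covariate, the same 6 genes were called as with all libraries, 1 higher and 5 lower of 57 tested, where 1.62% of all tested genes were higher and 2.72% lower. The log2 fold changes were 0.76 for COL11A1 (adjusted p = 0.0068), -0.82 for ITGB5 (adjusted p = 0.0021), -1.47 for ITGA10 (adjusted p = 0.0094), -0.60 for ITGA2 (adjusted p = 0.0311), -1.06 for LAMB3 (adjusted p = 0.0081) and -0.70 for ITGA11 (adjusted p = 0.0286).

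Control 2 held reads of matrix genes that the other libraries nearly lacked. Of the 82 genes 8 were over 5 times higher there than in every other library, against none in any of the other 5, and 6 of the 8 were not tested because of their low counts elsewhere. LAMA1, the alpha chain of laminin-111, the laminin of embryonic basement membranes, had 0, 336 and 2 reads in controls 1 to 3 and 4, 0 and 0 reads in MTR4 KD 1 to 3. COL2A1, the chain of cartilage collagen, had 5, 689 and 6 reads in control and 9, 18 and 18 reads in MTR4 KD. COL9A1, a chain of type IX collagen found with it, had 0, 64 and 1 reads in control and 4, 0 and 0 reads in MTR4 KD.

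The type IV pairs were part of this. COL4A1 had 8, 130 and 6 reads in controls 1 to 3 and 3, 2 and 15 reads in MTR4 KD 1 to 3, and COL4A2, across the stretch printed above, had 20, 305 and 12 reads in control and 3, 8 and 39 reads in MTR4 KD. Both genes of the pair had their highest count in control 2 and the next in MTR4 KD 3. COL4A6 had 0, 258 and 0 reads in control and 0, 4 and 0 reads in MTR4 KD. Its neighbor COL4A5, by contrast, was expressed in all libraries, at 5.90, 9.03 and 6.24 CPM in control and 6.21, 7.62 and 7.41 CPM in MTR4 KD (log2 fold change 0.00 ± 0.18, adjusted p = 0.995). The third pair, COL4A3 and COL4A4, had 5 to 19 and 7 to 31 reads per library and was not tested.

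ITGB8, a beta chain that pairs with alpha V, had 11, 66 and 8 reads in control and 1, 1 and 0 reads in MTR4 KD, and COL22A1 2, 34 and 0 reads in control and none in MTR4 KD. COL1A2, the alpha 2 chain of type I collagen, was just outside the limit of 5 times, with 28, 338 and 30 reads in control and 2, 3 and 63 reads in MTR4 KD. COL2A1, COL4A2 and COL1A2 were tested and had log2 fold changes of -3.77 ± 1.68, -2.57 ± 1.30 and -2.36 ± 1.33 (adjusted p = 0.285, 0.342 and 0.396), which became 1.37, 0.02 and -0.38 without control 2. The direction for COL2A1 and COL4A2 was thus that of a single library.

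**Figure D5:**
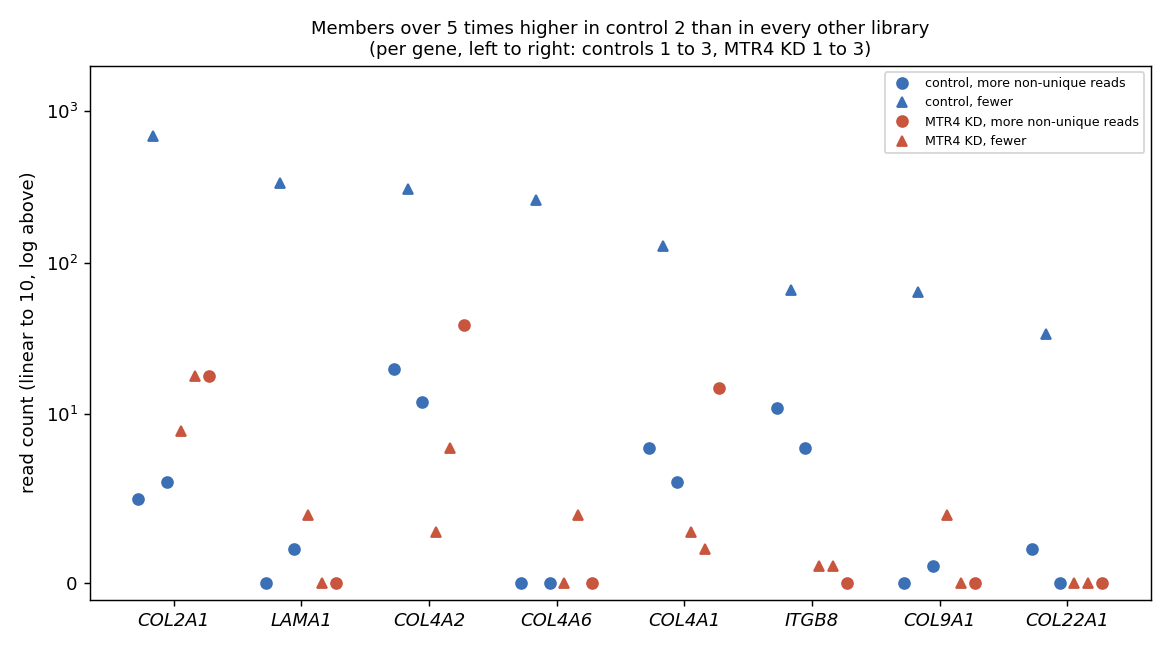
Read counts (linear up to 10, logarithmic above) of the 8 genes that were over 5 times higher in control 2 than in every other library. For each gene the points are, from left to right, controls 1 to 3 (blue) and MTR4 KD 1 to 3 (red), with circles for high-share and triangles for low-share libraries. The blue triangle of control 2 lies at 34 to 689 reads and all other points at 39 reads or fewer.

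Other genes that stood out in control 2, chosen after their values were seen, were SOX1, SOX2 and ZIC1, transcription factors of the neural lineage, and MAP2, a neuronal microtubule protein. SOX2 was at 7.62 CPM in control 2 and at 0 to 0.0829 CPM in the other libraries, ZIC1 at 10.9 against 0.163 to 0.568 CPM, and MAP2 at 10.6 against 0.0150 to 0.373 CPM. SOX1 was at 4.10 CPM and at 0 to 0.0162 CPM elsewhere. The matrix genes SPARC (19.8 against 0.261 to 0.930 CPM), PXDN (6.59 against 0.0898 to 0.438 CPM), FBN2 (8.76 against 0.0162 to 0.163 CPM) and VCAN (4.60 against 0.0299 to 0.216 CPM) were alike in this. VIM, an intermediate filament gene on the fibroblast list, was at 23.1 CPM in control 2, at 12.8 and 13.0 CPM in the other controls and at 6.83 to 7.75 CPM in MTR4 KD. Where the reads of these genes came from, and their part in the values of control 2, was not tested.

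The genes not yet named were few in reads or did not pass. The 20 genes that were neither tested nor standing out in control 2 had at most 0.428 CPM in any library. Among them were 13 collagen genes (COL10A1, COL13A1, COL14A1, COL15A1, COL19A1, COL21A1, COL23A1, COL25A1, COL6A5, COL6A6, COL8A1 and the pair COL4A3 and COL4A4), the laminin genes LAMA2 and LAMA4, and the integrin genes ITGA8, ITGAX, ITGB3 and ITGB6. COL25A1 and COL6A5 had 1 read each over all 6 libraries. Of the tested ones, COL12A1, COL16A1, COL17A1, COL20A1, COL24A1, COL26A1, COL28A1, COL8A2, COL9A3, LAMB4, ITGA9, ITGAM and ITGB2 were under 2 CPM in every library, and ITGA2B, ITGAD and ITGAL were at 1.34 to 5.60 CPM. None of these passed in any of the 4 fits.

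Of the genes whose products process collagen, those that passed the test fell. The chaperone gene SERPINH1 did not pass (adjusted p = 0.271, edgeR). Of 30 genes for collagen processing 26 were tested, 0 rose and 6 fell, at a median log2 fold change of -0.28. Over all tested genes 1.48% rose and 2.12% fell. Every MTR4 KD library lay below every control for 13 of the 26, against 12.6% of all tested genes. PLOD2, the lysyl hydroxylase of collagen telopeptides, was at 106, 96.6 and 103 CPM in controls 1 to 3 and at 50.2, 48.4 and 48.1 CPM in MTR4 KD 1 to 3 (log2 fold change -1.06 ± 0.06, adjusted p = 5.05e-04, edgeR). LOXL2, a lysyl oxidase that cross-links collagen, was at 7.57, 7.97 and 8.27 CPM in control and 4.43, 4.72 and 4.81 CPM in MTR4 KD (log2 fold change -0.77 ± 0.09, adjusted p = 0.0070). PCOLCE2, which enhances the cleavage of procollagen, was at 14.2, 14.3 and 15.0 CPM in control and 9.84, 8.85 and 9.38 CPM in MTR4 KD (log2 fold change -0.63 ± 0.08, adjusted p = 0.0092). None of the 3 stood out in control 2, and all passed without it (adjusted p = 8.35e-04, 0.0140 and 0.0140). With each library left out in turn, the largest adjusted p was 0.0085 for PLOD2, 0.0530 for LOXL2 and 0.0611 for PCOLCE2. The other 3 that fell were ADAMTS2, COLGALT1 and PLOD1, with log2 fold changes from -0.80 to -0.32. Their largest adjusted p with a library left out was 0.0841, 0.162 and 0.241.

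The partners of these proteins on either side of the membrane gave fewer calls. Of 14 basement membrane partners 11 were tested and none passed in the fit with condition only, by DESeq2 or by limma-voom. Of the 11, 6 had an unadjusted p under 0.05 (18.8% of all tested genes). With the covariate none rose and 4 fell, against 9.43% and 10.8% of all tested genes. The 4 were HSPG2, FBLN1, SPARC and PXDN. SPARC and PXDN stood out in control 2. Their log2 fold changes with the covariate were -3.65 and -3.56, and became 0.54 and 0.02 when control 2 was left out as well. With control 2 left out and no covariate, none of the 11 tested rose and 3 fell, against 1.62% and 2.72% of all tested genes. These were HSPG2, AGRN and FBLN1 (log2 fold changes -0.53, -0.35 and -0.32, adjusted p = 0.0328, 0.0312 and 0.0491, edgeR). Of 30 integrin adaptors 28 were tested, 1 rose and 2 fell, against 1.48% and 2.12% of all tested genes. ACTN1, which links integrins to actin, was at 222, 212 and 230.0 CPM in control and 159.5, 169 and 155 CPM in MTR4 KD (log2 fold change -0.46 ± 0.06, adjusted p = 0.0112). TNS1, a focal adhesion protein that binds beta tails, was at 7.02, 6.04 and 6.15 CPM in control and 3.46, 3.74 and 3.56 CPM in MTR4 KD (-0.84 ± 0.11, adjusted p = 0.0095). With each library left out in turn, the largest adjusted p was 0.0915 for ACTN1 and 0.0660 for TNS1. PTK2B, a focal adhesion kinase family member, rose by 0.41 ± 0.09 (adjusted p = 0.0480), a call lost without control 2 (adjusted p = 0.0763).

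Of 29 other matrix ligands 19 were tested and 1 fell, FN1, against 2.12% of all tested genes. FN1, fibronectin, the ligand of the alpha 5 beta 1 integrin, was at 3414, 3375 and 3601 CPM in control and 2661, 2736 and 2352 CPM in MTR4 KD (log2 fold change -0.42 ± 0.08, adjusted p = 0.0296). With each library left out in turn, its largest adjusted p was 0.146. Of 16 other matrix receptors 14 were tested and none passed by edgeR or limma-voom, while 4 had an unadjusted p under 0.05 (18.8% of all tested genes). DESeq2 called 3 lower and 6 fell with the covariate, against 4.26% and 10.8% of all tested genes.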

How the data were processed

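RNA-seq libraries of PLC/PRF/5 cells, 3 control and 3 MTR4 KD, were analysed at the level of genes. The files deposited by the authors hold, for every Ensembl gene, an unnormalized read count. The submitters' processing notes name HISAT2 2.1.0, HTSeq, DESeq2 and GRCh38, and whether counting used the strand is not given in the sources used here. For symbols and exon lengths the GENCODE set mapped to GRCh37 was used, where 56959 identifiers were found and 3716 were not, and for positions on GRCh38.p14 and promoter windows RefSeq, matched by symbol for 82 of 82 genes.

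The filterByExpr function of edgeR, at a minimum count of 10, left 18075 genes, which were compared with R 4.3.3, edgeR 4.0.16 (TMM, quasi-likelihood test, Benjamini-Hochberg adjustment over all tested genes) and limma 3.58.1. DESeq2 1.42.0 gave an alternative, and tables were made in Python 3.11.15 (pandas 2.3.3) and figures with matplotlib 3.10.9. All adjusted p-values are edgeR's unless another tool is named. Single values were not tested, since an exact permutation test of 3 against 3 cannot go below 0.1. On simulated data with condition only, 117 of 200 genes changed 2-fold were recovered (58.5%) and 11 others called. The simulation had no classes of library, and took its spread from the fit with condition only.

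The gene families, the lists of partners and markers, the classes of library and the tests were chosen with earlier results of these data known. Described with values were the genes with an adjusted p under 0.05, the 3 highest of each family per length, those over 5 times higher in control 2, the type IV pairs, up to 8 calls per direction with the covariate, up to 3 partners per list and direction, and MTR4. Other genes are given for completeness, and the values of 1 gene are not reported here. Alternatives were other size factors, filters and tests, the replicate number as a block, and each library left out.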

Additional observations from a re-analysis of the deposited data

How the results depend on the processing

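The 6 calls kept their direction under every alternative run, which says little, since their groups did not overlap. The count of genes of these families that were higher was 1 in the main comparison, 4 with the class of library as a covariate, 5 with the covariate and without control 2, and 0 to 1 when each library was left out. The count that were lower was 5, and was 8 without a filter on low counts, 9 with DESeq2's Wald test, 14 with the covariate, 10 with the covariate and without control 2, and 0 to 5 with a library left out. Past 2-fold as well, the count was 1, and was 3 without a filter, 2 with DESeq2's Wald test, 3 with the covariate and 0 to 2 with a library left out. Over all tested genes, 593 were higher and 770 lower with DESeq2's Wald test, and 52 to 300 higher and 85 to 503 lower with a library left out. The median log2 fold change of the tested genes ran from -0.39 to -0.13 with a library left out. COL18A1 reversed to 0.22 with the covariate. ITGA11 missed the threshold with DESeq2's size factors (adjusted p = 0.0514) and limma-voom (adjusted p = 0.0527). MTR4 fell in every alternative. The cause of these changes was not tested.

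Control and MTR4 KD share replicate numbers, and libraries of the same number had correlations of -0.24, 0.32 and 0.35 in their deviations from the group means, so that the numbers were not taken to pair the samples. With the replicate block the counts of genes of these families were 1 higher, 7 lower and 2 past 2-fold, and over all tested genes 342 were higher and 515 lower. Of the 6 calls ITGA11 was lost (adjusted p = 0.0519). Not every library correlated best with its own number, since control 1 and MTR4 KD 3 had 0.34 and control 1 and MTR4 KD 1 -0.24. The sign followed the class of library. A control and an MTR4 KD library of the same class had 0.32 to 0.36, and those of different classes -0.49 to -0.23.

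Genes under about 10 reads per library were not tested. In data simulated with 3 libraries per group and the spread of the fit with condition only, a 2-fold change was often missed. A gene without a call is thus not shown to be unchanged.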
